A study of Mus musculus with 6 samples.

Results

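The peritubular myoid and stromal cell genes are 32 named genes of the mouse testis, chosen by symbol as 17 smooth muscle contractile genes of peritubular cells and 15 markers of interstitial fibroblast-like cells. All 32 were found among the 55850 genes of the deposited table. They were measured by RNA sequencing of whole testis in 3 cKO and 3 WT libraries from mice with no treatment. The series title names Sertoli cells as the site of the Srsf2 loss. Srsf2 encodes a splicing factor of the SR protein family. The tissue, genotype and treatment are what the labels give. The sources used here do not give age, strain, the Cre driver, the alleles of the WT mice or whether each library came from its own animal. The p-values therefore reflect how far these 6 libraries scatter, which may be technical. The labelled tissue was checked by its markers, and Amh, a hormone gene of Sertoli cells, averaged 383 FPKM in cKO and 768 FPKM in WT libraries. This difference did not pass over all genes (limma adjusted p = 0.360). The log2 differences (cKO minus WT) of 20 Sertoli markers, Amh among them, ranged from -1.01 to 0.04.

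Peritubular myoid cells are flat, contractile cells that wrap each seminiferous tubule. They lay down its outer basement membrane together with Sertoli cells, and their contractions move immotile sperm along the tubule. Their contractile apparatus is that of smooth muscle, in which actin filaments stabilised by tropomyosin slide along myosin whose regulatory light chain is phosphorylated by a calcium-dependent kinase. The interstitium between tubules holds Leydig cells, vessels, macrophages and fibroblast-like stromal cells, which express Pdgfra, Tcf21 and Nr2f2 and secrete small proteoglycans and fibulins. Smooth muscle of vessels carries the same contractile genes, so a transcript such as Acta2 does not by itself name the cell.

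Many smooth muscle genes carry a CArG box, the site bound by serum response factor with its coactivator myocardin. RefSeq promoter windows on GRCm38.p6, from 250 bases before to 50 bases after a transcription start, were found for 13 of the 17 contractile and 8 of the 15 stromal genes, some with more than 1 start. The windows of 4 contractile genes are shown, because they set Acta2 and Myl9, the genes with the highest levels, and both tropomyosin genes, Tpm1 and Tpm2, side by side. Each is the 250 bases before the start, 5′ to 3′ on the strand of the gene, and capitals mark CArG boxes with at most 1 departing base. The start is that of the RefSeq window. In all 4 genes it lies inside the GENCODE M21 gene span given below, so part of each printed window is within that span. The regions are chr19:34255374-34255623 on the minus strand for Acta2, chr2:156775214-156775463 on the plus strand for Myl9, chr9:67049214-67049463 on the minus strand for Tpm1 and chr4:43523555-43523804 on the minus strand for Tpm2.
Acta2: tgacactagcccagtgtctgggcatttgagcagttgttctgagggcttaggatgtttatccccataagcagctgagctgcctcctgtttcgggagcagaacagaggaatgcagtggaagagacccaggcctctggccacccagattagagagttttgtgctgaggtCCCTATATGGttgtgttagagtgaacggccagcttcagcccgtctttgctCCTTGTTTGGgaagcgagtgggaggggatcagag
Myl9: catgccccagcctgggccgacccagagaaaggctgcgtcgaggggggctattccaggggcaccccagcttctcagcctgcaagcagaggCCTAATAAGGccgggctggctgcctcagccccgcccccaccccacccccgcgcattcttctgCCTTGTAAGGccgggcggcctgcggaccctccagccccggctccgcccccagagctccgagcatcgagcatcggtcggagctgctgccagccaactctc
Tpm1: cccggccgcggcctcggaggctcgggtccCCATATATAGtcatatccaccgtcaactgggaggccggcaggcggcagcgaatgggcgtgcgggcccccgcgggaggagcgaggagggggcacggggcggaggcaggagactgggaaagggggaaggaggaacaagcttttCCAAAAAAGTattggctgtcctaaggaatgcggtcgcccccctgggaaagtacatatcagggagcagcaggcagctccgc
Tpm2: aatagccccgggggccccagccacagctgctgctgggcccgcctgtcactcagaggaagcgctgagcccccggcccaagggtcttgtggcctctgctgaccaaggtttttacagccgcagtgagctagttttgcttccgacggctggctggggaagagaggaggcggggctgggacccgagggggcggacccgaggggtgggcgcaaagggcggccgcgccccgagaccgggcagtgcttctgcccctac
In the Acta2 window the boxes CCCTATATGG and CCTTGTTTGG began 84 and 34 bases before the start, each with 1 departing base. Myl9 had CCTAATAAGG, with no departing base, at 161 bases before the start, and Tpm1 had its nearest box at 80 bases before the start. The Tpm2 window held none. A box with at most 1 departing base, read in both orientations, stood in 7 of 14 contractile windows, 3 of 11 stromal windows and 21.1% of all 32851 windows. The form with no departing base stood in 1 contractile window, 0 stromal windows and 1.63% of all windows. A match of letters is a description and not a site of binding.

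The cKO libraries held 16185976 to 17281330 reads, as recovered from the FPKM values, and the WT libraries 16070287 to 16479907. Srsf2 stood at 74.0, 87.3 and 87.3 FPKM in cKO libraries, against 127, 96.7 and 102 FPKM in WT libraries (limma adjusted p = 0.384). The 18S ribosomal RNA gene took 0.727 to 0.835% of reads in cKO and 1.58 to 2.09% in WT libraries, and mitochondrial genes took 2.39 to 2.97% in cKO and 1.66 to 1.98% in WT libraries. The 20 Sertoli markers summed to 1126 to 1287 FPKM in cKO and 1554 to 2039.5 FPKM in WT libraries, and 19 of the 20 had a negative log2 difference. In 14 endothelial markers the sums were 151 to 172 FPKM in cKO and 188 to 192 FPKM in WT libraries. Leydig sums, of 12 markers, overlapped at 1566 to 1826 FPKM in cKO and 1354 to 1988 FPKM in WT libraries. Blood genes had positive log2 differences in 8 of 8, with a median of 0.69 and overlapping sums of 4869 to 6499.5 FPKM in cKO and 2717 to 5701 FPKM in WT libraries. Of 17 tested germ cell markers 14 were positive, and their sums overlapped at 314 to 471 FPKM in cKO and 244 to 516 FPKM in WT libraries. Macrophage sums, at 69.8 to 113 FPKM in cKO and 71.1 to 89.0 FPKM in WT libraries, overlapped as well. Lyz2 was the largest term, at a mean of 55.6 FPKM and at 91.0 FPKM in cKO replicate 2. Of 9 tested macrophage genes 5 were positive. C1qa and C1qb, 2 of the 9, lay wholly below WT, against 9.92% of all genes (limma adjusted p of 0.360 and 0.361). Markers of tissues that could be carried over with a testis were scarce. Among 14 epididymal markers 13 averaged below 1 FPKM, and Lcn5, Lcn9 and Gpx5 were listed at 0 in every library. Of 13 skeletal muscle markers 10 averaged below 1 FPKM. Mesothelial markers, of the tunica that covers the testis, were present, with sums of 83.9 to 94.4 FPKM in cKO and 89.2 to 102 FPKM in WT libraries. Wt1, the largest term at a mean of 28.8 FPKM, is also among the 20 Sertoli markers, so this sum is not of the tunica alone. Upk3b averaged 12.5 FPKM, while Msln and Muc16 lay below 1 FPKM.

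The members spanned a wide range of levels, in FPKM, which is per length and so comparable between genes. Acta2 led the contractile genes at a mean of 171 FPKM over the 6 libraries, and Myl9 followed at 139 FPKM. Flna and Tpm1 lay at 86.7 and 81.2 FPKM. The genes most restricted to differentiated smooth muscle were far lower, with Myh11 at 7.53, Actg2 at 6.62 and Cnn1 at 2.25 FPKM. Tagln averaged 0.876, Synpo2 0.536 and Pcp4 0.384 FPKM. Among stromal genes Sparc led at 424 FPKM, followed by Tcf21 at 111 and Dcn at 78.3 FPKM. At the other end of the stromal list were Vcam1, Mfap5 and Pi16 at 0.810, 0.318 and 0.125 FPKM. A filter at a mean of 1 FPKM left 14 of 17 contractile and 12 of 15 stromal genes for the test. The members nearest to that limit were Ly6a at 1.03 FPKM inside it and Tagln at 0.876 FPKM outside it.

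**Figure D1:**
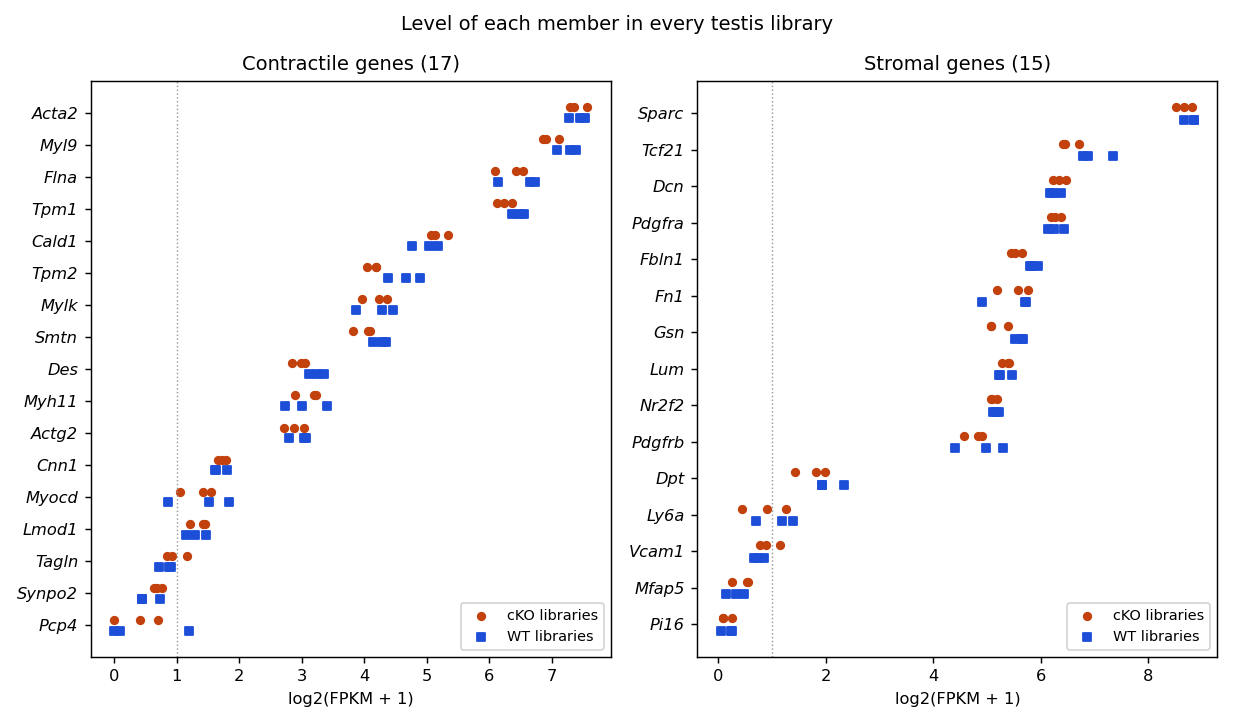
Level of each of the 17 contractile and 15 stromal genes on the log2(FPKM + 1) scale in the 3 cKO (circles) and 3 WT (squares) libraries, ordered by mean level, with a dotted line at 1 FPKM. Levels spread from Acta2 at 171 to Pcp4 at 0.384 FPKM and from Sparc at 424 to Pi16 at 0.125 FPKM, and for most genes the cKO and WT points overlap.

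No member differed between cKO and WT testis at an adjusted p under 0.05. The test was limma on log2(FPKM + 1) over 14238 genes, and it called 0 of 14 contractile and 0 of 12 stromal genes in either direction, where 0.00702% of all genes tested were called higher and 0.00702% lower. The lowest adjusted p of both lists was 0.372. At an unadjusted p under 0.05, 2 contractile genes were lower, Tpm2 and Des, and 3 stromal genes, Gsn, Fbln1 and Tcf21, against 7.68% of all genes tested. On the higher side the count was 0 in both lists, against 4.65% of all genes. Over all genes these are 662 higher and 1094 lower genes, a split that was 911 and 747 on the TPM scale and 1058 and 999 with limma voom. The cKO values lay wholly below the WT values in 3 contractile genes (Tpm2, Smtn and Des) and 3 stromal genes (Gsn, Fbln1 and Tcf21), against 9.92% of all genes, and wholly above in 0, against 8.69%. By limma voom on recovered reads 0 members passed at an adjusted p, and 1 contractile and 3 stromal genes were lower at an unadjusted p under 0.05. The median log2 difference was -0.08 over the contractile genes tested, with 10 of 14 negative, and -0.12 over the stromal genes tested, with 8 of 12 negative. Over all genes tested it was 0.0049, with 49.2% negative and 50.8% positive. In whole tissue, fewer cells of a type and less RNA per cell cannot be told apart.

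**Figure D2:**
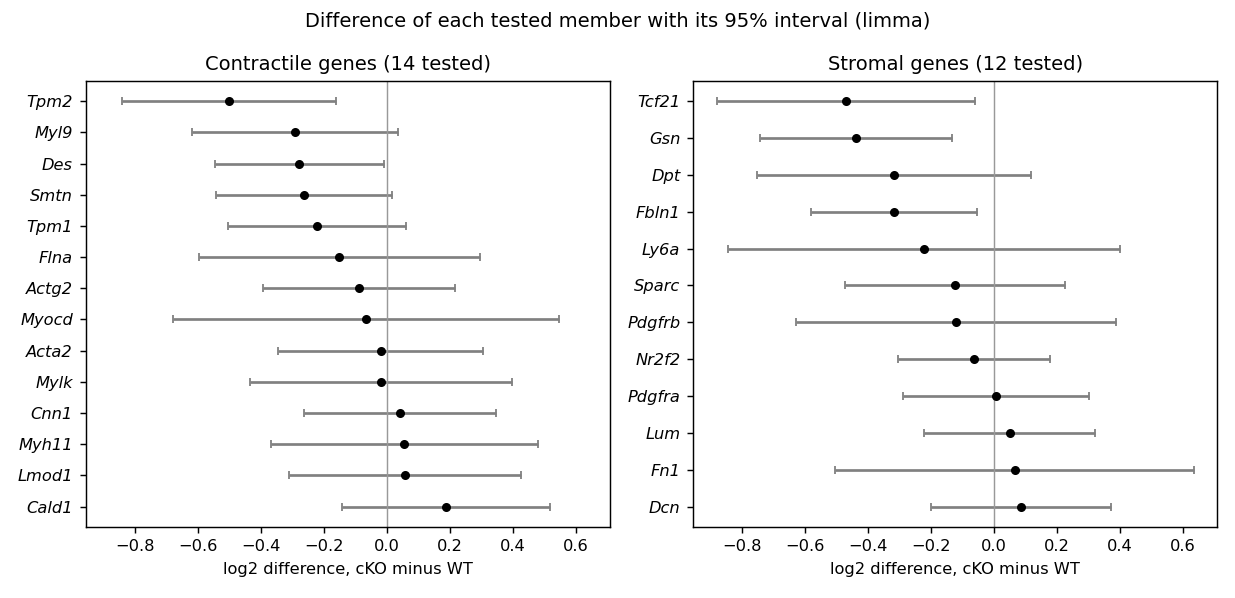
Log2 difference (cKO minus WT, on log2(FPKM + 1)) of each tested member with its 95% interval from limma, contractile genes on the left and stromal genes on the right. The interval lay below 0 for Tpm2 and Des and for Tcf21, Gsn and Fbln1, and it crossed 0 for the other 21 genes.

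Thick and thin filament genes come first among the contractile genes. Acta2, the smooth muscle alpha actin gene on chromosome 19 at 34241090 to 34255590 (minus strand, GENCODE M21 on GRCm38), had 156, 163 and 189.5 FPKM in cKO libraries, against 175, 155 and 185 FPKM in WT libraries. The groups overlapped throughout. Its log2 difference was -0.02 (SE 0.14, 95% interval -0.34 to 0.31, limma adjusted p = 0.963), a value that was positive on the TPM scale, with quantile normalization and with voom. Actg2, the second smooth muscle actin, averaged 6.39 ± 0.833 FPKM in cKO and 6.84 ± 0.760 FPKM in WT libraries (SD, n = 3 each). Only 0.352% of the 50-base words of the Acta2 transcript occurred in transcripts of other genes, and 0 of those of Actg2. Myh11, the smooth muscle myosin heavy chain, averaged 7.64 ± 1.08 FPKM in cKO and 7.42 ± 1.96 FPKM in WT libraries (SD, n = 3 each).

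Myl9, the regulatory light chain of smooth muscle myosin on chromosome 2 at 156775420 to 156781658, had 139, 116 and 119.5 FPKM in cKO libraries, against 157, 135 and 168 FPKM in WT libraries. The highest cKO value lay just above the lowest WT value. The log2 difference of Myl9 was -0.29 (SE 0.14, 95% interval -0.62 to 0.04, limma adjusted p = 0.430). Mylk, the kinase that phosphorylates this light chain, had 17.8, 14.6 and 19.6 FPKM in cKO libraries, against 13.5, 21.1 and 18.5 FPKM in WT libraries. WT replicate 1 was the lowest of the 6 for Mylk. The log2 difference of Mylk was -0.02 (limma adjusted p = 0.974), and its sign turned under several settings given with the alternatives.

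Tropomyosins lie along the actin filament and control where myosin can bind. Tpm2, the beta tropomyosin gene on chromosome 4 at 43514711 to 43523765 (minus strand), had 17.3, 15.6 and 17.3 FPKM in cKO libraries, against 28.6, 19.8 and 24.6 FPKM in WT libraries. All cKO values lay below all WT values, and the WT values spread more widely. Tpm2 had the largest difference of the contractile genes, at -0.50 (SE 0.15, 95% interval -0.84 to -0.16, limma adjusted p = 0.372), with a cKO mean at 68.8% of the WT mean. Tpm1, the alpha tropomyosin gene on chromosome 9 at 67022590 to 67049406 (minus strand), had 74.5, 69.2 and 81.2 FPKM in cKO libraries, against 88.3, 81.1 and 92.9 FPKM in WT libraries. The highest cKO value and the lowest WT value were nearly equal. Its log2 difference was -0.22 (SE 0.12, 95% interval -0.50 to 0.06, limma adjusted p = 0.483).

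Caldesmon and calponin damp the actomyosin cycle at rest. Cald1, the caldesmon gene on chromosome 6 at 34598500 to 34775473, had 32.8, 34.1 and 39.4 FPKM in cKO libraries, against 26.1, 32.0 and 35.1 FPKM in WT libraries. The groups overlapped, with WT replicate 1 lowest. Cald1 had the highest log2 difference of the contractile genes, 0.19 (SE 0.14, 95% interval -0.14 to 0.52, limma adjusted p = 0.588). Cnn1, calponin, averaged 2.30 ± 0.145 FPKM in cKO and 2.20 ± 0.242 FPKM in WT libraries (SD, n = 3 each), and Lmod1, a nucleator of actin filaments, 1.57 ± 0.221 and 1.48 ± 0.268 FPKM.

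Des and Smtn tie the contractile filaments into the cell's scaffold. Des, the desmin intermediate filament gene on chromosome 1 at 75360329 to 75368579, had 7.26, 6.95 and 6.19 FPKM in cKO libraries, against 9.25, 7.66 and 8.46 FPKM in WT libraries. Every cKO value was below every WT value. Its log2 difference was -0.28 (SE 0.12, 95% interval -0.55 to -0.01, limma adjusted p = 0.403). Smtn, smoothelin, on chromosome 11 at 3517523 to 3540612 (minus strand), had 15.6, 13.2 and 16.1 FPKM in cKO libraries, against 16.6, 18.4 and 19.3 FPKM in WT libraries. These groups also did not overlap, by a narrow gap between cKO replicate 3 and WT replicate 1. The log2 difference of Smtn was -0.26 (SE 0.12, 95% interval -0.54 to 0.02, limma adjusted p = 0.417). In Smtn 16.3% of exon bases overlap genes on the opposite strand, and in Des 5.86%. The share is 7.46% in Nr2f2, 6.85% in Mylk and, with genes on either strand, 6.50% in Pdgfra. It is lower in Pi16, Fn1 and Vcam1. Since the use of strand in counting is not given, such genes are uncertain.

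Flna encodes filamin A, which crosslinks actin in many cell types. On chromosome X at 74223461 to 74249820 (minus strand), it had 85.2, 67.7 and 92.5 FPKM in cKO libraries, against 69.6, 106 and 99.6 FPKM in WT libraries. The groups overlapped, with cKO replicate 2 and WT replicate 1 both low. Its log2 difference was -0.15 (SE 0.19, 95% interval -0.60 to 0.30, limma adjusted p = 0.756). Myocd, the coactivator of serum response factor, had 1.67, 1.06 and 1.91 FPKM in cKO libraries, against 0.812, 2.55 and 1.85 FPKM in WT libraries. WT replicates 1 and 2 were the lowest and the highest of all 6, and the interval of its log2 difference, -0.68 to 0.55, was the widest of the contractile genes.

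The remaining contractile genes were too low for the test. Tagln, which encodes the actin-binding protein transgelin, had 42, 31 and 26 reads in cKO libraries, against 20, 28 and 28 reads in WT libraries. Its group totals were 99 reads in cKO (95% interval 80.5 to 120.5, exact Poisson) and 76 in WT libraries (59.9 to 95.1), and these intervals overlap and cover counting error only. Of the exon bases of Tagln 67.9% overlap genes on the opposite strand, Pcsk7 and Gm48529, so how shared reads were assigned bears on its level. Synpo2, an actin-binding protein of the smooth muscle cytoskeleton, averaged 0.617 ± 0.0704 FPKM in cKO and 0.455 ± 0.174 FPKM in WT libraries (SD, n = 3 each). Pcp4, which encodes a small calmodulin-binding protein, had 11, 6 and 0 reads in cKO libraries, against 21, 1 and 0 reads in WT libraries. Nearly all of its WT reads lay in 1 library, and 33.1% of the 50-base words of its transcript also occur in Igsf5, its overlapping neighbour.

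**Figure D3:**
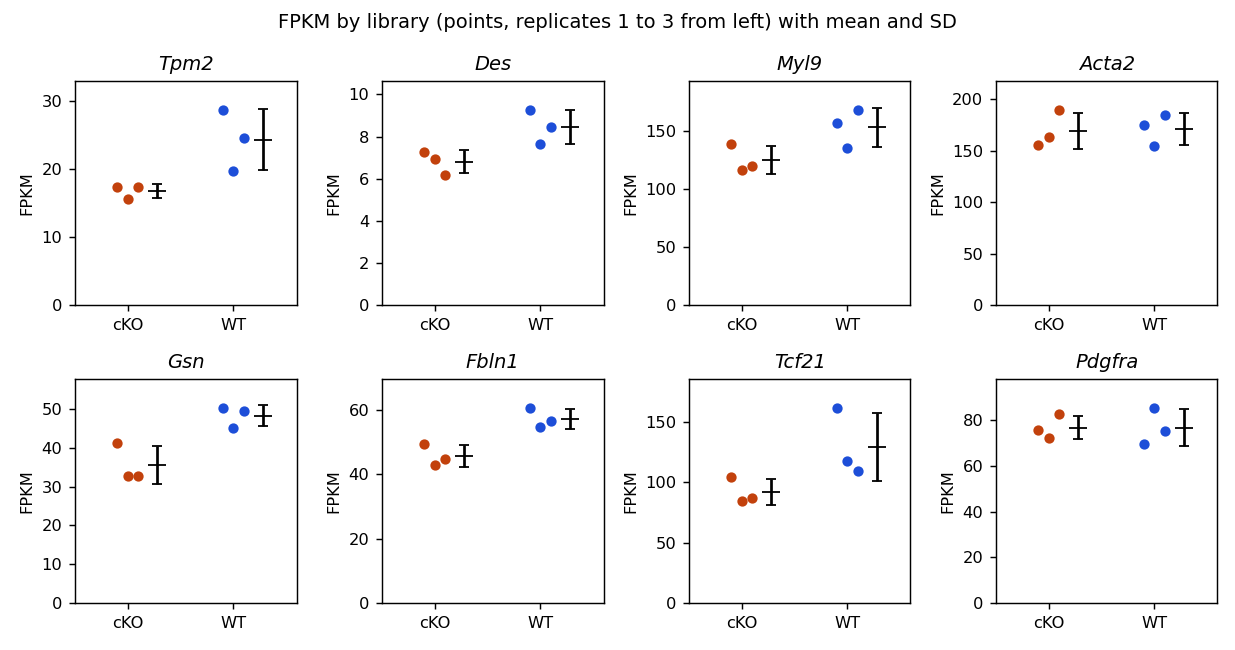
FPKM of 4 contractile genes (top) and 4 stromal genes (bottom) in each library, with replicates 1 to 3 from left to right in cKO and then WT, and the mean and SD (n = 3) beside the points. The cKO points of Tpm2, Des, Gsn, Fbln1 and Tcf21 all lie below the WT points, those of Myl9 overlap narrowly with WT, and those of Acta2 and Pdgfra overlap fully.

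Transcription factors and receptors of the stroma are given next. Tcf21, a basic helix-loop-helix factor of interstitial and fibroblast-like cells on chromosome 10 at 22817281 to 22820174 (minus strand), had 105, 84.7 and 86.9 FPKM in cKO libraries, against 161, 118 and 109 FPKM in WT libraries. No cKO value reached the lowest WT value, though cKO replicate 1 came close to WT replicate 3. Tcf21 had the largest log2 difference of the stromal genes, -0.47 (SE 0.18, 95% interval -0.88 to -0.06, limma adjusted p = 0.381), with a cKO mean at 71.2% of the WT mean. Without WT replicate 1, the highest library, the difference was -0.30. Nr2f2, an orphan nuclear receptor of interstitial cells, had 32.6, 33.1 and 35.3 FPKM in cKO libraries, against 33.8, 35.2 and 36.6 FPKM in WT libraries. It had the narrowest 95% interval of the stromal genes, -0.30 to 0.18 on the log2 scale.

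Both receptors for platelet-derived growth factors overlapped between the groups. Pdgfra, on chromosome 5 at 75152292 to 75198215, had 75.7, 72.2 and 82.5 FPKM in cKO libraries, against 69.4, 85.4 and 75.3 FPKM in WT libraries. The group means were nearly equal, at 76.8 ± 5.24 FPKM in cKO and 76.7 ± 8.07 FPKM in WT libraries (SD, n = 3 each), and the difference was 0.0051 on the log2 scale (SE 0.13, 95% interval -0.29 to 0.30, limma adjusted p = 0.990). Pdgfrb, also a gene of mural cells, had 29.1, 22.9 and 27.7 FPKM in cKO libraries, against 20.4, 30.5 and 38.4 FPKM in WT libraries. The 3 WT libraries enclosed all cKO values of Pdgfrb. Among the 4 ligand genes 0 passed over all genes. Pdgfd had 6.74, 7.30 and 8.45 FPKM in cKO libraries, against 5.64, 5.63 and 6.16 FPKM in WT libraries. Pdgfa averaged 25.1 ± 0.796 FPKM in cKO and 31.0 ± 4.31 FPKM in WT libraries (SD, n = 3 each). Neither gene overlapped between the groups, Pdgfd above and Pdgfa below WT, with limma adjusted p of 0.380 and 0.410. Of all genes tested, 8.69% lay wholly above WT and 9.92% wholly below. Pdgfc was at 7.06 ± 0.932 FPKM in cKO and 6.35 ± 0.986 FPKM in WT libraries (SD, n = 3 each).

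Genes for secreted matrix proteins follow. Fbln1, fibulin 1, on chromosome 15 at 85205949 to 85286535, had 49.5, 42.8 and 44.9 FPKM in cKO libraries, against 60.6, 54.6 and 56.4 FPKM in WT libraries. The groups were separated, and each varied little. Its log2 difference was -0.32 (SE 0.11, 95% interval -0.58 to -0.05, limma adjusted p = 0.380). Dcn, the proteoglycan decorin on chromosome 10 at 97479609 to 97518143, had 73.8, 80.6 and 87.7 FPKM in cKO libraries, against 81.9, 71.7 and 74.0 FPKM in WT libraries. Its groups overlapped, and the difference was 0.09 on the log2 scale (SE 0.12, 95% interval -0.20 to 0.37, limma adjusted p = 0.777). Lum, its relative lumican and a neighbour on chromosome 10, averaged 40.2 ± 2.10 FPKM in cKO and 38.8 ± 3.75 FPKM in WT libraries (SD, n = 3 each).

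Sparc, a collagen-binding matrix protein gene on chromosome 11 at 55394500 to 55423183 (minus strand) that other cells of the testis also express, had 451, 364 and 404 FPKM in cKO libraries, against 408, 458 and 460.3 FPKM in WT libraries. The groups overlapped through cKO replicate 1 and WT replicate 1. Its log2 difference was -0.12 (SE 0.15, 95% interval -0.47 to 0.23, limma adjusted p = 0.742). Fn1, fibronectin, had 46.7, 35.7 and 53.6 FPKM in cKO libraries, against 29.1, 52.1 and 51.2 FPKM in WT libraries. WT replicate 1 was the lowest library, and without it the log2 difference of Fn1 was -0.20, against 0.07 with all 6. Dpt, dermatopontin, on chromosome 1 at 164796644 to 164824266, had 2.55, 1.71 and 2.99 FPKM in cKO libraries, against 4.05, 2.83 and 2.85 FPKM in WT libraries. The groups overlapped, and the log2 difference of Dpt was -0.32 (SE 0.19, 95% interval -0.75 to 0.12, limma adjusted p = 0.506).

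Gsn encodes gelsolin, which severs and caps actin filaments and is abundant in fibroblasts and smooth muscle. On chromosome 2 at 35256380 to 35307892, it had 41.3, 32.7 and 32.6 FPKM in cKO libraries, against 50.2, 45.1 and 49.5 FPKM in WT libraries. All cKO values lay below all WT values. Gsn had the lowest p of the stromal genes, and its difference was -0.44 on the log2 scale (SE 0.13, 95% interval -0.74 to -0.13, unadjusted p = 0.0104, limma adjusted p = 0.372).

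Ly6a, Vcam1, Mfap5 and Pi16 were the stromal genes nearest to the floor of the measurement. Not every fibroblast marker was that low, as Dpt, given above, averaged 2.83 FPKM over all libraries. Ly6a, which encodes the surface antigen Sca-1, on chromosome 15 at 74994877 to 74998031 (minus strand), had 0.875, 1.41 and 0.356 FPKM in cKO libraries, against 1.62, 0.643 and 1.27 FPKM in WT libraries. The groups overlapped, and its log2 difference was -0.22 (SE 0.27, 95% interval -0.85 to 0.40, limma adjusted p = 0.740). These levels rest on 7 to 30 reads per library in cKO and 13 to 31 in WT. Part of its 50-base words also occur in Ly6c1 and other relatives, so its reads are uncertain. Pi16, a peptidase inhibitor of adventitial fibroblasts, had 36 reads in the cKO (95% interval 25.2 to 49.8, exact Poisson) and 44 in the WT group (32.0 to 59.1). Mfap5, of elastic microfibrils, had 69 reads (53.7 to 87.3) in cKO and 45 (32.8 to 60.2) in WT. Vcam1, a cell adhesion receptor, averaged 0.930 ± 0.267 FPKM in cKO and 0.689 ± 0.111 FPKM in WT libraries (SD, n = 3 each).

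Taken library by library, the contractile and stromal lists had their lowest values in the same library. Each gene's log2(FPKM + 1) was set against its mean over the 6 libraries, and the median over the tested genes of a list was taken. The contractile medians were -0.0074, -0.21 and 0.12 in cKO libraries, against 0.03, -0.03 and 0.14 in WT libraries. Those of the stroma were -0.05, -0.23 and 0.02 in cKO libraries, against 0.10, 0.11 and 0.10 in WT libraries. So cKO replicate 2 was lowest in both lists, the contractile lists overlapped between the groups, and the stromal values did not. Over all genes tested the same medians lay between -0.0042 and 0.0038 in cKO and between -0.01 and 0.02 in WT libraries. Without cKO replicate 2 the median log2 difference of the contractile genes was -7.09e-05 and that of the stromal genes -0.05. Without cKO replicate 3 the contractile median was -0.17. Leaving out cKO replicate 1 gave a stromal median of -0.19. Without WT replicate 1 both medians were lower, at -0.20 for contractile and -0.18 for stromal genes, and with WT replicate 3 left out they were -0.03 and -0.06. The summed level of the 17 contractile genes was 519, 568 and 604 FPKM in cKO libraries, ordered by size, and 595, 604 and 675 FPKM in WT libraries. For the 15 stromal genes it was 816, 901 and 946 FPKM in cKO, against 965, 991 and 993 FPKM in WT libraries, a large part of it Sparc.

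Over all genes tested, the log2 difference ran with GC content and with gene length, and the members followed this in part. GC content was taken from the longest GENCODE M21 transcript of each gene. Of all 3233 tested genes with a GC content of 55% or more, 2743 had a negative log2 difference, with a median of -0.20, and so did the 5 members in that class, Des, Myl9, Smtn, Tpm2 and Gsn. Under 45% only 544 of 3539 genes were negative, with a median of 0.19, and the members there, Dcn and Lum, were at 0.09 and 0.05. In the classes between, only the stromal genes at 50 to 55% had a median of the same sign as all genes. At 45 to 50% the median was -0.04 for 4 contractile and -0.22 for 5 stromal genes, against 0.07 for all genes. At 50 to 55% it was 0.01 for 6 contractile and -0.12 for 4 stromal genes, against -0.07 for all genes. For genes under 2000 bases long the median was -0.11, and for those of 8000 bases or more it was 0.11. The contractile medians had no such order, at -0.19, -0.02, -0.14 and -0.02 in the 4 length classes from short to long, on 2 to 5 genes each. The stromal medians were -0.27, -0.28, -0.12 and 0.0051, on 2 to 4 genes each. In the class of 55% GC or more the median deviation was 0.03, -0.17 and -0.16 in cKO libraries, against 0.12, 0.07 and 0.14 in WT libraries, so cKO replicate 1 stood nearer to WT than the other cKO libraries.

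With each library's trends on length and GC content removed (added with the data in view), the contractile median was -0.03 and the stromal median -0.21. Smtn had a log2 difference of -0.05 in that fit, Myl9 -0.08 and Des -0.12, each closer to 0 than without the correction. Tpm2 was at -0.36, Gsn at -0.26 and Fbln1 at -0.21, also closer to 0 than their -0.50, -0.44 and -0.32 without the correction. Tcf21 was nearly the same with and without it, at -0.45 and -0.47. Dcn and Lum turned to -0.21 and -0.09, and 11 of 12 stromal genes were then negative. The lowest limma adjusted p was 0.511 among contractile and 0.503 among stromal genes, and over all alternatives it ranged from 0.178 to 0.990 and from 0.227 to 0.928.

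**Figure D4:**
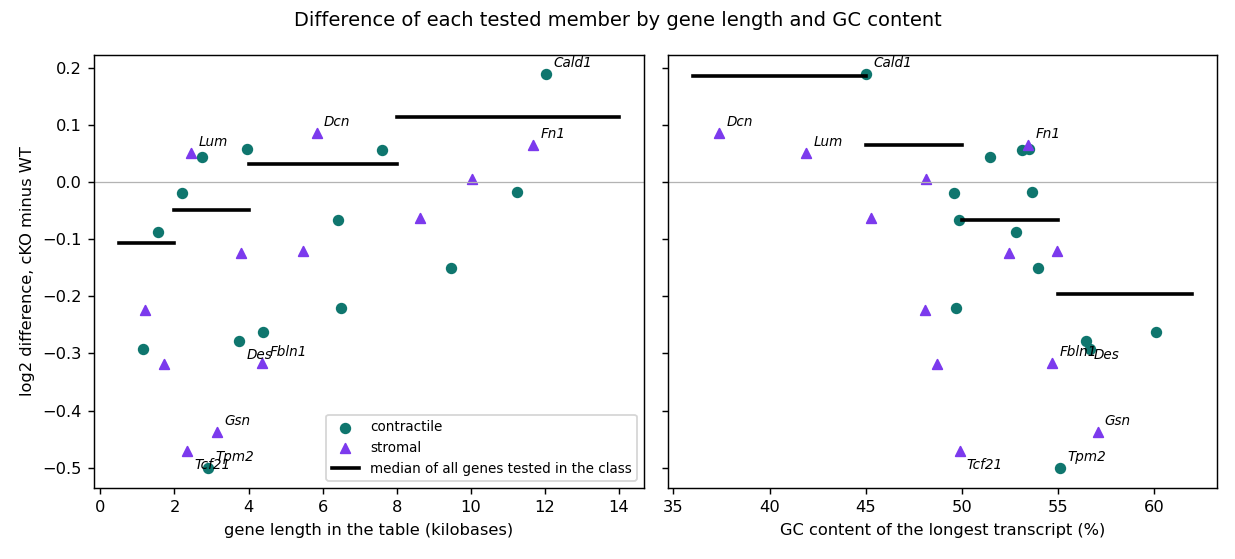
Log2 difference (cKO minus WT) of the tested contractile genes (circles) and stromal genes (triangles) against gene length in kilobases (left) and GC content in percent (right), with black lines at the median of all genes tested in 4 classes of length and of GC content, drawn over the plotted part of each class. The lines run from -0.11 to 0.11 with length and from 0.19 to -0.20 with GC content. Tpm2, Gsn, Tcf21, Fbln1, Tpm1 and Dpt are among the genes well below the line of their class.

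Regulators of contraction outside the members also gave 0 calls over all genes by limma. Of 21 tested regulators 0 were higher and 2 lower at an unadjusted p under 0.05, against 4.65% and 7.68% of all genes, and the median log2 difference was 0.05. The lower ones were Ppp1r14a, an inhibitor of myosin phosphatase, and Myl6, the essential light chain of myosin. Ppp1r14a had 20.2, 18.9 and 15.7 FPKM in cKO libraries, against 33.9, 22.1 and 41.7 FPKM in WT libraries, a log2 difference of -0.76 (limma adjusted p = 0.372). The WT libraries differed widely among themselves. Myl6 averaged 52.9 ± 6.07 FPKM in cKO and 82.8 ± 23.1 FPKM in WT libraries (SD, n = 3 each). Ppp1r12c, a subunit that targets myosin phosphatase, averaged 16.7 ± 1.38 and 21.3 ± 3.62 FPKM. Srf itself, named here after its values were seen, averaged 27.8 FPKM in cKO and 29.6 FPKM in WT libraries.

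Among 37 tested partners of the filaments at adhesions, 3 were higher and 4 lower at an unadjusted p under 0.05, against 4.65% and 7.68% of all genes, with 0 past the adjusted threshold. Csrp1, a LIM protein of smooth muscle, had 99.2, 85.1 and 95.7 FPKM in cKO libraries, against 133, 117 and 128 FPKM in WT libraries (log2 difference -0.43, limma adjusted p = 0.372). Dmd, which encodes dystrophin, had the opposite sign, at 3.14 ± 0.347 FPKM in cKO and 2.06 ± 0.302 FPKM in WT libraries (SD, n = 3 each). Neither Csrp1 nor Dmd overlapped between the groups. Of the 37, 4 lay wholly above WT and 2 wholly below, against 8.69% and 9.92% of all genes. Crip1, another LIM protein gene, averaged 3.43 ± 1.35 FPKM in cKO and 6.10 ± 1.59 FPKM in WT libraries (SD, n = 3 each).

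Genes of vascular smooth muscle and pericytes, which share the contractile genes, were also measured. Their 17 summed levels were 118 to 140.1 FPKM in cKO and 131 to 152 FPKM in WT libraries, and 9 of 12 tested genes had a negative difference, against 49.2% of all genes. Of the 12, 2 were lower at an unadjusted p under 0.05, against 7.68% of all genes. Kcnj8, a potassium channel gene of pericytes, had 2.62, 2.43 and 2.45 FPKM in cKO libraries, against 7.25, 4.79 and 4.04 FPKM in WT libraries (log2 difference -0.83, limma adjusted p = 0.360). Rasl12 averaged 4.58 ± 0.109 FPKM in cKO and 6.62 ± 0.244 FPKM in WT libraries (SD, n = 3 each). Both were separated between the groups, while Cspg4, the NG2 proteoglycan of pericytes, overlapped at 5.81 ± 1.03 FPKM in cKO and 7.19 ± 1.14 FPKM in WT libraries. Of the 12, 2 lay wholly below WT and 0 wholly above, against 9.92% and 8.69% of all genes. The part of vessels in the values of the contractile genes was not tested.

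A wider list of stromal matrix and fibroblast genes was read in the same fit. Of 58 tested genes, 38 had a negative difference, against 49.2% of all genes, and the median was -0.14. At an unadjusted p under 0.05, 2 were higher and 8 lower, against 4.65% and 7.68% of all genes, with 0 past the adjusted threshold. Emilin1, of elastic fibres, had 66.0, 39.3 and 46.5 FPKM in cKO libraries, against 84.4, 88.4 and 89.8 FPKM in WT libraries. The WT values were tight and the cKO values spread, all below WT, and the difference was -0.81 on the log2 scale (SE 0.19, limma adjusted p = 0.360). Ogn, the proteoglycan osteoglycin, lay above WT in every cKO library, at 30.3 ± 4.53 FPKM in cKO and 21.2 ± 1.83 FPKM in WT libraries (SD, n = 3 each). Of the 58, 1 lay wholly above WT and 12 wholly below, against 8.69% and 9.92% of all genes. Igfbp4, an insulin-like growth factor binding protein gene, averaged 133 ± 4.87 FPKM in cKO and 185 ± 23.0 FPKM in WT libraries (SD, n = 3 each). The summed level of the 62 genes of this list was 2552 to 2995 FPKM in cKO and 3161 to 3329.9 FPKM in WT libraries. Over the same libraries the Sertoli and endothelial sums and the 18S and mitochondrial shares given above also did not overlap between the groups, and their part in these values was not tested.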

How the data were processed

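Whole-testis RNA was measured in 3 cKO and 3 WT libraries, extracted with Trizol and made with a SMARTER mRNA-Seq kit per the labels' protocols. The authors deposited FPKM values per gene, each relative to a gene's length as listed and a library total, in a table whose name calls them so. The genome builds named in the submitters' processing notes are GRCm38 and mm10, while the sources used here do not give the aligner, counter, annotation release or use of strand. Of 52081 identifiers shared with GENCODE M21, 1499 had the same start, so printed positions come from GENCODE M21 (GRCm38), matched by identifier. Multiplied by gene length, 100% of values fell on whole steps of 1 size in each library, within 0.01, and were read as numbers of reads. The authors' total was 0.990 to 1.02 times these reads.

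Expression was tested on log2(FPKM + 1) with limma-trend (limma 3.58.1 under R 4.3.3), two-sided, as cKO minus WT. It covered the 14238 genes whose mean FPKM reached 1, with Benjamini-Hochberg adjustment over them and calls at 0.05. The pseudocount makes fold changes of low genes too small. The procedure was tested on simulated data, with planted differences larger than those of the members and no trends on length or GC content. How well it finds differences as small as those of the members was not tested. The members and all lists were chosen with earlier results of these data known. Every member is named. Values of each library with full statistics go to the 5 members of each list with the lowest p and the 5 with the highest level, and in the text also to members whose libraries stood apart, a choice made after the values were seen. The 3 genes with the lowest p are named for the lists of regulators, adhesion partners, vascular smooth muscle, wider stroma and PDGF ligands. The rule asked the same of the marker lists of other cell types, but those are given by sums and counts, with Amh, C1qa, C1qb and Lyz2 alone named by p. Wt1, Upk3b, Msln and Muc16 were named after their values were seen. Read intervals are exact Poisson at 95%. Other steps used Python 3.11.15, pandas 2.3.3, numpy 2.4.6 and, for plots, matplotlib 3.10.9.

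Alternatives were pseudocount 0.1, no filter, a stricter filter at a mean of 5 FPKM, median-of-ratios and TPM scaling, a replicate block, no trend and each library left out in turn. Those chosen with the data in view were quantile normalization, removal of length and GC trends by natural splines (5 df each, GC known for 97.9% of tested genes) and limma voom on the recovered reads of genes that reached 10 reads in 3 or more libraries. The table lists genes, so alternative splicing is not analysed here.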

Additional observations from a re-analysis of the deposited data

How the results depend on the processing

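No contractile or stromal gene passed over all genes in any setting. The median log2 difference stayed negative, over the other settings from -0.20 to -7.09e-05 for contractile and from -0.21 to -0.04 for stromal genes, and with no filter it was -0.05 over all 17 and -0.06 over all 15. The median of all genes moved by at most 0.05, on the TPM scale.

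Over all genes, 1 higher and 1 lower gene passed. The higher count was 0 with pseudocount 0.1, a mean FPKM of at least 5, median-of-ratios scaling or the replicate block, 4 with no filter and 2 with length and GC trends removed. The lower count was 16 with no filter and 0 with the replicate block or voom. Without 1 library both counts were 0. At an unadjusted p under 0.05 the 662 higher genes were 1130 with no filter, 417 with a mean FPKM of at least 5, 363 with length and GC trends removed and 1058 with voom, and 237 to 1057 without 1 library. The 1094 lower genes were 480 to 1465 without 1 library. The 2 lower contractile genes were 3 with no filter. They were 1 with a mean FPKM of at least 5, on the TPM scale or with the replicate block. With no trend, quantile normalization or voom they were also 1. Without 1 library they were 1 to 3, with 1 left when WT replicate 3 or either of cKO replicates 2 and 3 was omitted. The 3 lower stromal genes were 4 with length and GC trends removed, and 2 with no filter, on the TPM scale or with quantile normalization. They were 0 to 3 without 1 library, 1 without cKO replicate 2 and 0 without cKO replicate 3.

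Signs turned for genes near 0, and the cause was not tested. On the TPM scale Acta2 was at 0.0417 and Mylk at 0.0393. With quantile normalization Acta2 was at 0.11, Mylk at 0.0051 and Nr2f2 at 0.0203. With length and GC trends removed Actg2 was at 0.0281, Mylk at 0.0197, Pdgfra at -0.0916, Dcn at -0.21 and Lum at -0.0863. With voom Acta2 was at 0.0018 and Mylk at 0.0034. Without 1 library the log2 difference ranged from -0.10 to 0.0384 for Acta2, -0.10 to 0.23 for Myh11, -0.19 to 0.11 for Mylk, -0.0169 to 0.14 for Lmod1, -0.34 to 0.15 for Myocd, -0.0633 to 0.084 for Pdgfra, -0.20 to 0.22 for Fn1 and -0.36 to 0.0812 for Pdgfrb.

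The replicate numbers were checked for pairing. Deviations of same-numbered cKO and WT libraries from their group means correlated across 14238 genes at 0.09, -0.33 and 0.39. The labels give the samples a shared number, and 3 libraries a group cannot decide whether they share more. With the replicate block 0 genes passed over all genes. Replicate 1 of cKO correlated best with WT replicate 2, at 0.15, and cKO replicate 2 with WT replicate 1, at 0.35. Precision is limited by 3 libraries a group and, for Tagln, Pcp4, Ly6a, Mfap5 and Pi16, by few reads.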
